A study of Mus musculus with 6 samples.

Results

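Ccn2 encodes CCN2, also called connective tissue growth factor, a secreted protein that sits in the extracellular matrix and is known in the heart for its link to fibrosis. The noncoding features around this gene are described here: rows of the authors' deposited table that overlap the gene body of Ccn2, or that overlap no protein-coding gene and have the Ccn2 start as their nearest protein-coding start within 100 kb. Genes and starts were those of GENCODE M21, on the mm10 build. The rule gave 37 of the 34518 listed features. It used position alone. None of the 37 overlapped the body of Ccn2 (chromosome 10, 24595442 to 24598683, plus strand), and all 37 were linked by the nearest start.

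The study overexpressed FOG2, the product of Zfpm2 and a partner protein of GATA factors, and measured the RNA left after removal of ribosomal and polyadenylated transcripts. The FOG2_OE group held 3 libraries from left atria with FOG2 overexpression and the WT group 3 libraries from wild-type left atria. All 6 libraries came from adult CD1 mice, an outbred stock, and the animals of both groups had been kept without doxycycline for 1 week. The labels give neither the promoter that drives the transgene nor whether animals were pooled.

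CCN2 transcription is known to be driven by TGF-beta through SMAD proteins and by the mechanosensitive coactivators YAP and TAZ through TEAD factors. Cardiomyocytes and fibroblasts can both make the protein, which binds integrins and LRP receptors and modulates how cells respond to TGF-beta. Noncoding transcripts that run beside such a gene, or opposite to it, are common in the genome, and most of them have no known function.

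Values for each library in the deposited table are fitted values of the authors' model. Within a group they differ by library size alone, so that no spread between replicates can be read from them. Levels are therefore given for each group as counts-per-million (CPM) of the effective library. Effective libraries ranged between 72464183 and 84907173 reads in FOG2_OE and between 71180401 and 82251201 reads in WT. Errors are standard errors solved from the deposited likelihood ratio, and a feature is called at an adjusted p under 0.05 over the whole table (the authors' likelihood ratio test, Benjamini-Hochberg). As a check of the group labels, the feature MSTRG.29831 inside Zfpm2 had 416 CPM in FOG2_OE, against 0.484 CPM in WT.

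The features fell into a long upstream tract and a single feature past the gene. On the upstream side, 36 features lay between 16.6 and 99.96 kb from the Ccn2 start, all listed on the minus strand, opposite to Ccn2. They spanned 84111 bases, covered 68.8% of them, did not overlap each other, and had a median gap of 577.5 bases. Then came a gap of 20626 bases with no member, which holds Ccn2 itself. The remaining feature, MSTRG.7323 (chromosome 10, 24599441 to 24599830), was listed on the strand of Ccn2 and began 758 bases past the gene's end. Since the kit that the labels name keeps no strand information, the listed strands are not taken as measured.

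**Figure D1:**
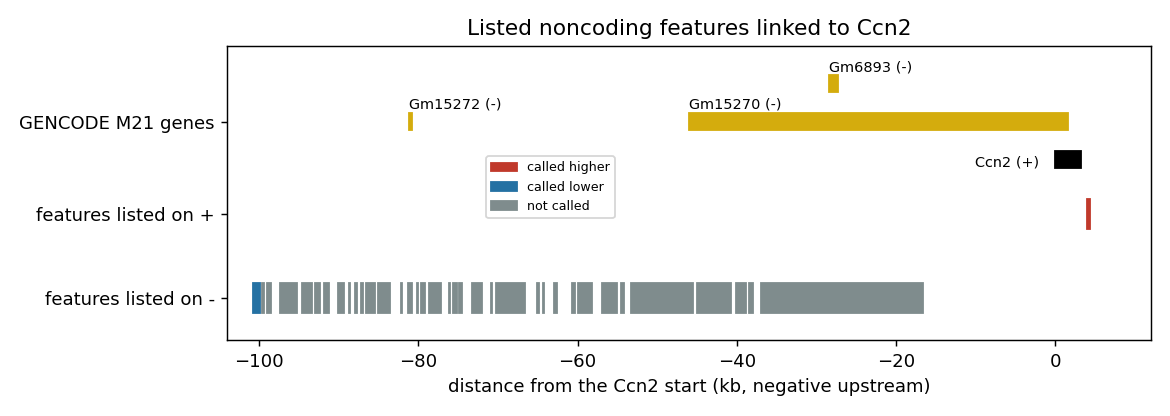
Positions of the 37 features linked to Ccn2 along the distance from its start (kb, negative upstream), with features listed on the plus strand above those on the minus strand and GENCODE M21 genes at the top, in red for the higher call, blue for the lower call and grey for features not called. The 36 minus-strand features form a near-continuous tract that ends 16.6 kb before Ccn2, and MSTRG.7323 lies just past the gene.

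Of the annotated noncoding genes here, Gm15270 is the one whose annotated span overlaps both the tract and Ccn2. Whether the RNA of the tract belongs to a transcript that reaches Ccn2 was not tested. Gm15270 is a noncoding gene listed on the minus strand (chromosome 10, 24549441 to 24597108) that starts inside Ccn2 and runs back over 5 members, MSTRG.7318 to MSTRG.7322. Exons of Gm15270 overlapped 1 of these, MSTRG.7318, and the other 4 lay in its introns. Most of MSTRG.7318, which spans 24542205 to 24549927, lies past the annotated end of Gm15270. The processed pseudogene Gm15272 lies within MSTRG.7301, and the processed pseudogene Gm6893 within MSTRG.7322. The remaining upstream features overlapped no GENCODE M21 gene.

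The 3 sequences below show these overlaps of annotation and are given 5′ to 3′ on the minus strand. The first, 141 bases of GENCODE M21 (chr10:24549447-24549587), is the last exon of a Gm15270 transcript and lies inside MSTRG.7318, the feature with the highest level of the 37. The second, 233 bases of GENCODE M21 (chr10:24514279-24514511), is Gm15272 inside MSTRG.7301. It is shown because it is a near copy of another gene, and its 6 capitals mark the bases that differ from the aligned transcript of Cbl. The third, 172 bases of the RefSeq promoter of Gm15270 on GRCm38.p6 (chr10:24595882-24596053), lies upstream of the start that RefSeq gives for Gm15270, while the GENCODE M21 gene runs farther into Ccn2 and covers it. Over all 172 bases it is the complement of coding sequence in exon 2 of Ccn2, so that it shows where both genes share DNA. Its capitals mark the complement of the start codon of a second Ccn2 transcript in GENCODE M21.
Gm15270 last exon: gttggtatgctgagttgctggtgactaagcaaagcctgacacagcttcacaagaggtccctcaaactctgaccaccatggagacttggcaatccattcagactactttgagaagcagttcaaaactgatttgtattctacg
Gm15272: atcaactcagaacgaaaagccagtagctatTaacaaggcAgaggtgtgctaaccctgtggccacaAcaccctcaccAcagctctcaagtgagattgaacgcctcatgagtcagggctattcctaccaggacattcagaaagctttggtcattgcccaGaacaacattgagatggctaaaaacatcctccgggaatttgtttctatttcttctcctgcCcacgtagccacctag
Gm15270 upstream: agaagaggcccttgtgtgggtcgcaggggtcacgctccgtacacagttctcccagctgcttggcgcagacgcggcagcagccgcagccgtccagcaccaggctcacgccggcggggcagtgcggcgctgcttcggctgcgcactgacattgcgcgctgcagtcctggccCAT

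Gm15272 matched a transcript of Cbl, a ubiquitin ligase gene, at 95.8% identity over 237 aligned positions, gaps included, and it matched transcripts of 20 other genes, Cbl included. Gm6893 matched Dctn5, a dynactin subunit gene, at 86.2% identity over 550 aligned positions. How the authors placed reads that fit several such copies is not given in the sources used here, so that the levels of MSTRG.7301 and MSTRG.7322 are uncertain. The last exon of Gm15270 matched no other annotated gene. In the 300 bases of the RefSeq promoter of Gm15270, searched on both strands, there was no GATAA (a core of GATA sites, present in 25.4% of the 32851 promoters of the table), no GGAATG (a TEAD core, in 14.7%) and no AGGTGT (a T-box core, in 13.7%).

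Most upstream features stood slightly lower with FOG2 overexpression, and 1 of them passed the test. Per the authors' deposited table, 1 of the 37 features was called higher and 1 lower, or 2.70% each way, while of all 34518 features 1.16% were called higher and 4.65% lower. The log2 fold change of FOG2_OE over WT was below 0 for 32 of the 37 by the authors' deposited table. Its median over the 37 was -0.56, against -0.21 over all listed features, of which 60.6% were below 0. With the median ratio of all features set to 1, 31 of the 37 remained below 0. The features are neighbours, and whether several of them belong to 1 longer transcript was not tested. The 32 are therefore not separate observations. In bulk tissue such as this, fewer cells that make a transcript and less of it per cell cannot be told apart.

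The calls changed with the threshold, the reference distribution and the filter on scarce features. At an adjusted p under 0.01 the 37 held 0 higher and 1 lower call, while 0.608% of all features were higher and 2.69% lower. Setting the median ratio to 1 left 1 higher and 1 lower call, against 1.62% higher and 3.47% lower overall. If the likelihood ratio is compared with an F distribution that has 10 residual degrees of freedom, a stricter reading that allows for an estimated spread, 0 of the 37 were higher and 0 lower, against 0.203% higher and 1.07% lower overall. At an unadjusted p under 0.05 the same reading gave 1 higher and 3 lower of the 37 (2.70% and 8.11%), near the 3.19% higher and 9.52% lower of all features. With 4 residual degrees of freedom no feature of the whole table was called (0% higher and 0% lower). With scarce features left out, 8176 of at least 20 mean fitted reads per library were tested, of which 1.98% were higher and 7.86% lower. The 16 members among them then held 1 higher call, MSTRG.7323, and 1 lower call. That lower call was MSTRG.7290 at an adjusted p of 0.0467, since MSTRG.7288 was too scarce to enter.

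**Figure D2:**
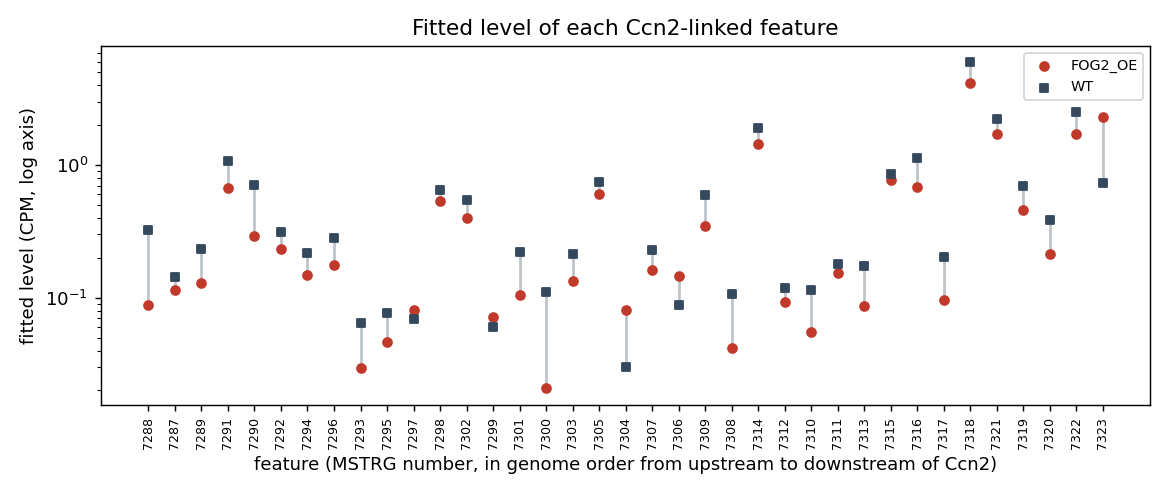
Fitted level in CPM (log axis) of each of the 37 features in genome order, with circles for FOG2_OE, squares for WT and a line joining both groups of a feature. The circle lies under the square for 32 features, and MSTRG.7323 at the right has the circle on top, at 2.30 CPM in FOG2_OE and 0.734 CPM in WT.

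MSTRG.7323, past the end of Ccn2, was the feature called higher. Its fitted reads were 183.4, 166.8 and 195.4 in FOG2_OE replicates 1 to 3, against 52.24, 57.54 and 60.36 in WT replicates 1 to 3. These fitted values do not overlap between the groups, but their spread within a group is library size alone. The separation therefore adds nothing to the call, and MSTRG.7314, which was not called, showed it too. FOG2_OE thus stood at 2.30 CPM and WT at 0.734 CPM. Per the authors' deposited table the log2 fold change was 1.65 with an adjusted p of 0.048, or 3.13-fold higher, and the implied SE was 0.54 (95% interval 0.59 to 2.70). The adjusted p was 0.0209 with the median ratio of all features set to 1, and 0.236 under the F distribution of 10 degrees of freedom. Per length no other of the 37 was more abundant in either group, at 5.90 CPM per kb in FOG2_OE and 1.88 CPM per kb in WT, while the 36 upstream features together had 0.281 CPM per kb in FOG2_OE and 0.406 CPM per kb in WT. Whether it holds reads of Ccn2 mRNA that run past the annotated end was not tested.

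Features in the position of MSTRG.7323 were seldom called in either direction. Over the whole table, 4130 features overlapped no protein-coding gene and lay at most 2 kb past the end of such a gene on its listed strand. By the authors' deposited table, 23 of these were higher and 77 lower at that threshold, and their median log2 fold change was -0.17. That is 0.557% higher and 1.86% lower, against 1.16% higher and 4.65% lower of all features. Among the 495 of them with 0.5 to 2 times the mean fitted reads of MSTRG.7323, 2 were higher and 15 lower by the authors' deposited table (0.404% and 3.03%). MSTRG.7323 had the highest log2 fold change of these 495, while of all 4130 there were 123 at or above it, itself included. The choice of this class was made after its value was seen, and no test was made of it.

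Ccn1 also had a feature called higher past its end. The gene encodes CCN1, a matrix protein of the same family and, like CCN2, a target of YAP and TEAD. MSTRG.56126 (chromosome 3, 145645990 to 145646169) begins 807 bases past the end of Ccn1 on the listed strand of that gene. FOG2_OE stood at 0.306 CPM and WT at 0.0570 CPM, and the log2 fold change per the authors' deposited table was 2.39 (implied SE 0.74) with an adjusted p of 0.0245. Under the F distribution of 10 degrees of freedom its adjusted p was 0.193. The other feature of Ccn1, MSTRG.56129, was listed on the opposite strand, and the authors' deposited table gives it 0.95 on the log2 scale (implied SE 0.51) at an adjusted p of 0.327. Other family members mostly stood the other way: 4 of 4 features of Ccn4 and 4 of 5 of Ccn6 were below 0, none called. Ccn3 and Ccn5 had no feature.

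Of the 4 most abundant upstream features 3 overlapped Gm15270 at least in part, and none of the 4 was called. MSTRG.7318 (chromosome 10, 24542205 to 24549927) had 329.5, 299.7 and 351.1 fitted reads in FOG2_OE replicates 1 to 3 and 423.9, 466.9 and 489.8 in WT replicates 1 to 3. In CPM this was 4.14 in FOG2_OE and 5.96 in WT. The log2 fold change per the authors' deposited table was -0.53 at an adjusted p of 0.422, with an implied SE of 0.32 (95% interval -1.16 to 0.11). An interval of this width holds both no change and a fall of more than 2-fold (-1 on the log2 scale).

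MSTRG.7322 (chromosome 10, 24558461 to 24578814), the longest member and the upstream feature closest to Ccn2, had 1.73 CPM in FOG2_OE and 2.51 CPM in WT. For it the authors' deposited table gives a log2 fold change of -0.54 at an adjusted p of 0.492 (implied SE 0.37). MSTRG.7321 (chromosome 10, 24550387 to 24554770), in an intron of Gm15270, had 1.70 CPM in FOG2_OE and 2.21 CPM in WT. Its log2 fold change per the authors' deposited table was -0.37, with an implied SE of 0.37 and an adjusted p of 0.668. MSTRG.7314 (chromosome 10, 24525195 to 24528856), outside any annotated gene, had 1.45 CPM in FOG2_OE and 1.90 CPM in WT. For this feature the authors' deposited table has -0.39 on the log2 scale (implied SE 0.39) and an adjusted p of 0.675. All 4 of these abundant upstream features thus stood below 0, and all 4 intervals held 0.

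Summed over the 5 features that overlap Gm15270, FOG2_OE stood at 8.24 CPM and WT at 11.7 CPM, a ratio of 0.701. This sum is not the level of Gm15270. It holds all of MSTRG.7318 (4.14 CPM in FOG2_OE and 5.96 CPM in WT), most of which lies past the annotated end of that gene. Over the other 31 upstream features FOG2_OE stood at 8.04 CPM and WT at 11.8 CPM, a ratio of 0.684. The 2 ratios were close, and no test of their difference was possible on fitted values.

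At the far end of the tract, MSTRG.7288 (chromosome 10, 24494704 to 24495478) was the feature called lower. It had 7.048, 6.41 and 7.511 fitted reads in FOG2_OE replicates 1 to 3 and 22.9, 25.23 and 26.46 in WT replicates 1 to 3. Again their spread within a group is library size alone, so that the separation of the groups adds nothing to the call. FOG2_OE stood at 0.0885 CPM and WT at 0.322 CPM. By the authors' deposited table the log2 fold change was -1.84 (implied SE 0.53) with an adjusted p of 0.00987, or 3.59-fold lower. Under the F distribution of 10 degrees of freedom the adjusted p was 0.149. Its near edge lies 99.96 kb from the Ccn2 start, so that it is a member by the narrowest margin.

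Sparser features were listed past the 100 kb limit. A further 22 features, 101.9 to 169.7 kb from the Ccn2 start and again all listed on the minus strand, had Ccn2 as their nearest protein-coding start. They covered 7661 bases, against 57839 for the 36 upstream members. Of the 22, 15 had a log2 fold change below 0 and 7 above 0. Of the 22, 2 were called lower and 0 higher by the authors' deposited table (9.09% and 0%), against 4.65% lower and 1.16% higher of all features. Both lower calls were scarce: MSTRG.7278 had 0.0335 CPM in FOG2_OE and 0.168 CPM in WT, and MSTRG.7284 0.00422 CPM and 0.0787 CPM. The median log2 fold change of the 22 was -0.79, against -0.21 over all listed features. At an unadjusted p under 0.05, 4 of the 22 were lower and 0 higher, while 12.5% of all features were lower and 4.52% higher. Just inside the limit the authors' deposited table gives log2 fold changes of -1.84 for MSTRG.7288 and -0.32 for MSTRG.7287. Just outside it, the authors' deposited table gives 0.54 for MSTRG.7286 and 0.90 for MSTRG.7285. The outer features were scarce, summing to 2.42 CPM in FOG2_OE and to 2.92 CPM in WT, while the 36 upstream members summed to 16.3 CPM in FOG2_OE and to 23.5 CPM in WT.

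**Figure D3:**
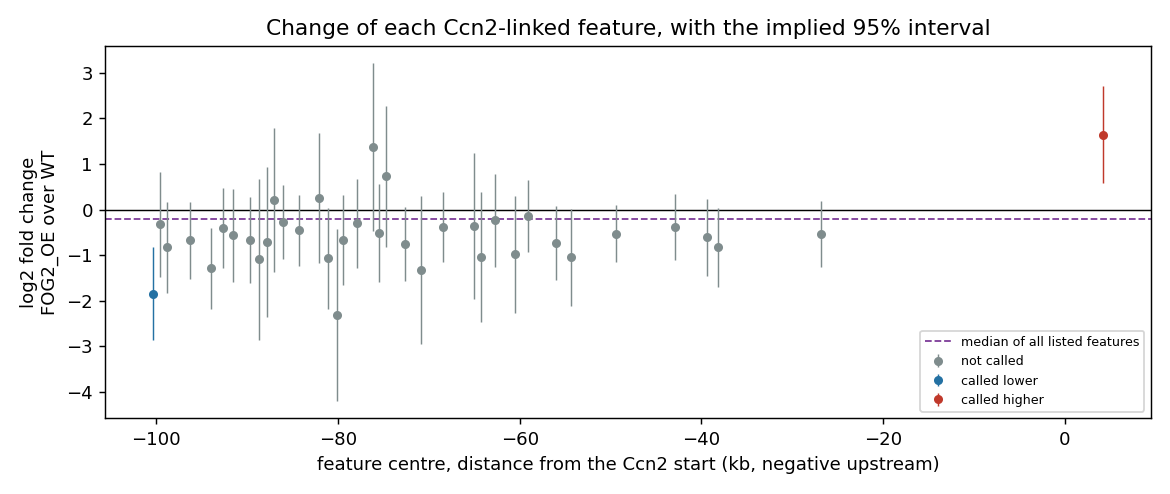
Log2 fold change of FOG2_OE over WT for each of the 37 features against the distance of its centre from the Ccn2 start (kb), with bars for the implied 95% interval and a dashed line at the median of all listed features (-0.21). MSTRG.7323 at the right stands at 1.65, and 33 of the other 36 intervals hold 0.

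Along the tract the ratio of levels was similar at every distance. By distance of the near edge, the ratio of summed levels was 0.690 for the 1 feature within 25 kb of the Ccn2 start, 0.704 for 4 features at 25 to 50 kb, 0.719 for 11 at 50 to 75 kb and 0.653 for 20 at 75 to 100 kb. Over the 36 features Pearson's r between log2 fold change and distance was -0.07 and Spearman's rho -0.09, given as a description, since the features share libraries and may share a transcript. The level per length was 0.0849 CPM per kb in FOG2_OE and 0.123 CPM per kb in WT over MSTRG.7322, and 0.312 to 0.468 CPM per kb in FOG2_OE and 0.478 to 0.664 CPM per kb in WT over the 3 bins farther out. Lengths are those of the listed interval, which may hold introns.

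The remaining 31 features, all upstream, had levels of 0.0208 to 0.769 CPM in FOG2_OE and 0.0301 to 1.14 CPM in WT. None was called by the authors' deposited table, where 27 of the 31 had a log2 fold change below 0 and the range was -2.32 to 1.37. At an unadjusted p under 0.05 in the authors' test, 2 of the 31 were lower and 0 higher, while 12.5% of all features were lower and 4.52% higher. These 2, MSTRG.7300 and MSTRG.7290, were singled out after their values were seen. MSTRG.7300 was scarce, with 1.656, 1.506 and 1.764 fitted reads in FOG2_OE replicates 1 to 3. The log2 fold changes of the authors' deposited table were -2.32 for MSTRG.7300 (adjusted p = 0.113) and -1.29 for MSTRG.7290 (adjusted p = 0.0682). MSTRG.7301, which holds the pseudogene Gm15272, had 0.105 CPM in FOG2_OE and 0.221 CPM in WT. For it the authors' deposited table gives -1.07 on the log2 scale (implied SE 0.57) and an adjusted p of 0.311. The 4 upstream features above 0 all had under 20 mean fitted reads, at 0.0715 to 0.146 CPM in FOG2_OE and 0.0301 to 0.0876 CPM in WT.

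The intervals were wide for most members. Of the 37 features, 16 had at least 20 mean fitted reads per library and 21 fewer, with a median implied SE on the log2 scale of 0.41 for the 16 and 0.65 for the 21. Of the 16, 15 were below 0, and of the 21, 17 were below 0. The 95% interval held both 0 and -1, a 2-fold fall, for 30 of the 36 upstream features. These widths carry both the number of reads and the spread between libraries. The 4 most abundant upstream features, with 130.6 to 393.5 mean fitted reads, still had implied SEs of 0.32 to 0.39 and implied biological coefficients of variation of 27.0 to 32.0%. For MSTRG.7323, the feature called higher, with 119.3 mean fitted reads, the implied SE was 0.54 and the implied coefficient 44.4%.

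**Figure D4:**
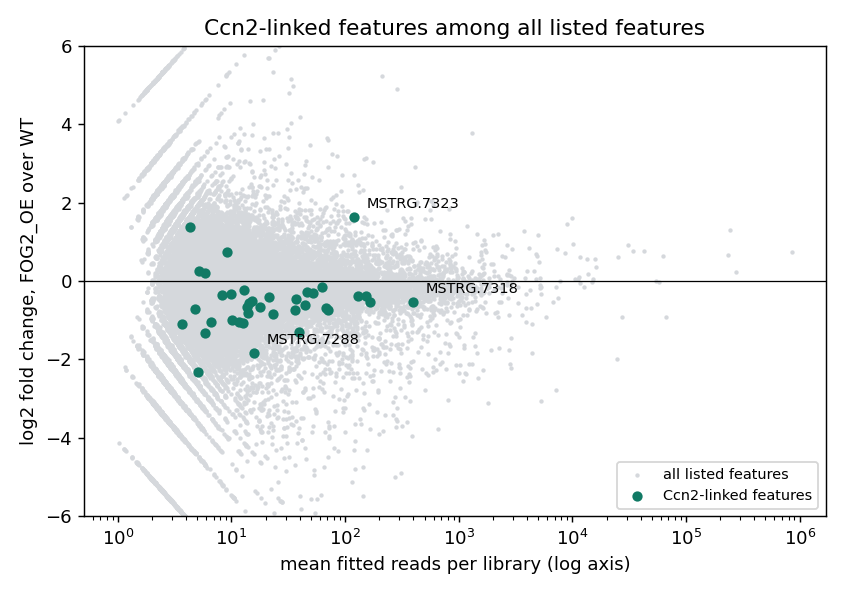
Log2 fold change of FOG2_OE over WT against the mean fitted reads per library (log axis), in grey for all listed features and in green for the 37 linked to Ccn2. The 127 features beyond 6 on the log2 scale are not drawn. MSTRG.7323, at 119.3 mean fitted reads, lies above 0, and MSTRG.7318, at 393.5, lies below 0.

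Few of the other genes of the Ccn2 pathway had a called feature. Lists of 62 genes other than Ccn2 covered the CCN family, TGF-beta ligands, receptors and SMADs, the YAP and TEAD arm, genes that share these inputs, CCN2 receptors and binding partners, and fibrillar matrix genes. Features linked by the same rule were listed for 33 of the 62 genes, 157 in all. Of the 157, the authors' deposited table called 1 higher and 1 lower (0.637% each way, against 1.16% higher and 4.65% lower of all features), and their median log2 fold change was -0.03. The higher one was MSTRG.56126 of Ccn1. The lower one, MSTRG.55517 (chromosome 3, 121722314 to 121723429), lies 0.108 kb from the start of F3, which encodes tissue factor, the trigger of blood clotting. It had 0.212 CPM in FOG2_OE and 0.652 CPM in WT. Per the authors' deposited table its log2 fold change was -1.61 (implied SE 0.44) and its adjusted p 0.00873, which was 0.145 under the F distribution of 10 degrees of freedom.

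By role, no call in either direction was held, per the authors' deposited table, by the 45 features of TGF-beta pathway genes, the 20 of the YAP and TEAD arm, the 38 of CCN2 receptors and partners or the 23 of fibrillar matrix genes. The median log2 fold change, again from the authors' deposited table, was -0.14 for the TGF-beta pathway, -0.37 for the YAP and TEAD arm, -0.04 for receptors and partners and 0.79 for fibrillar matrix. Of the 23 matrix features, 2 were below 0, and 14 of the 23 belonged to Col3a1, which encodes type III collagen. The list of shared targets, with 20 features, gave the lower call at F3, and the CCN family outside Ccn2, with 11 features, the higher call at Ccn1. By the authors' deposited table the medians of these 2 lists were -0.36 for shared targets and -0.33 for the CCN family. Of the 11 CCN family features, 8 were below 0.

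Few protein-coding genes around Ccn2 had linked features, while the 22 features beyond 100 kb are linked to no gene by the rule. Of 8 protein-coding genes whose start lies within 500 kb, 7 had no linked feature, among them Moxd1 and Enpp1 on either side. Arg1, which encodes the urea cycle enzyme arginase, had 2, neither called, and their median log2 fold change per the authors' deposited table was -0.80. Among 109 other genes with 19 to 74 linked features, the authors' deposited table put the medians of Rnf213 (34 features, -0.57), Iqch (50 features, -0.55) and Bhlhe41 (21 features, -0.58) closest to that of Ccn2 (-0.56). The likeness is in the median over 2 groups alone. Of the 109, these 3 and others, 67 in all, had no call in the table the authors deposited, and 29 of the 109 had a median below that of Ccn2.

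Features of cell type markers are given beside these values, and their part in them was not tested. The fibroblast list (6 genes, all with features) had 22 features, none called, summing to 5.58 CPM in FOG2_OE and to 5.87 CPM in WT. The cardiomyocyte list (7 genes, Myh6 without a feature) had 140 features, with 87.4 CPM in FOG2_OE and 125 CPM in WT as their sum, and the authors' deposited table called 3 of them higher and 7 lower (2.14% and 5%, against 1.16% and 4.65% of all features). Of the 7 lower calls 3 belonged to Myl7, an atrial myosin light chain gene, whose 6 features had a median log2 fold change of -4.10. Ryr2 held 3 lower calls and 1 higher, and Ttn 1 lower and 2 higher. By the authors' deposited table the medians of the other listed genes were smaller in size: -0.71 for Ryr2, -0.24 for Ttn, -0.20 for Nppa, -0.09 for Tnnt2 and 0.11 for Actn2. Of 5 features of smooth muscle and pericyte genes (Pdgfrb without one), the authors' deposited table had 1 called higher, and they summed to 0.5004 CPM in FOG2_OE and to 0.3168 CPM in WT. The called one, MSTRG.43342 of Acta2, had 0.221 CPM in FOG2_OE, against 0.00433 CPM in WT, and without it the sums were 0.279 CPM for FOG2_OE and 0.312 CPM for WT. The endothelial (13), immune (5), mesothelial (3) and adipocyte (13) features held no call by the authors' deposited table. Endothelial features summed to 1.57 CPM in FOG2_OE and to 1.31 CPM in WT, with Vwf and Flt1 without a feature. Immune features summed to 1.38 CPM in FOG2_OE and to 1.94 CPM in WT, with Ptprc and Adgre1 without one. For the mesothelial gene Wt1 (Upk3b and Msln had none) the sums were 6.33 CPM for FOG2_OE and 5.87 CPM for WT. Features of the adipocyte gene Adipoq (Plin1 had none) summed to 1.79 CPM in FOG2_OE and to 2.53 CPM in WT. These are features listed at or near marker genes in RNA depleted of polyadenylated transcripts, so that they check the labelled tissue weakly. Whether those that overlap a gene body hold reads of that gene's own transcripts was not tested.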

How the data were processed

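RNA of left atria was measured in 3 FOG2_OE and 3 WT libraries, grouped by the titles in the labels. Per the labels' protocols, ribosomal and polyadenylated RNA were depleted and libraries made with a TruSeq RNA v2 kit. The submitters' processing notes name STAR, HTSeq 0.6.0, edgeR, deepTools and mm10, with no roles. How features were assembled and filtered is not given in the sources used here.

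The authors' deposited table gave, per feature, a log2 fold change and log2 CPM, a likelihood ratio score, and a p-value and adjusted p-value. Its 6 sample columns, treated as a deposited signal, are fitted values: within a group they are constant multiples (largest relative spread 9.33e-15). No count test could be run, and the authors' p-values are the main result. They measure the spread between these libraries only.

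Computed here were effective library sizes (718 features above 300 fitted reads), the dispersion at which the fitted values return each deposited likelihood ratio, and from it the implied SE and 95% interval. For ratios under 0.1, or where none was found, the dispersion came from features of like abundance (6324 features). The steps were tested on data simulated with these same dispersions, which checks the calculation and not the authors' estimates. The software was pandas 2.3.3 and scipy 1.17.1 with numpy 2.4.6, run in Python 3.11.15. Pseudogene and exon sequences were aligned to GENCODE M21 transcripts with blastn 2.17.0 (E-value at most 1e-10). Starts count from 0 in the table and from 1 here.

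Features named in the text were those over Ccn2 or within 5 kb of its start, those called, the 5 most abundant and the first and last by position, and for other pathway genes the feature with the smallest adjusted p where 1 was called. Features named outside this rule were chosen after their values were seen. The members and lists were chosen with earlier results of these data known. Alternatives covered the threshold, the scale between groups, the reference distribution, a filter at 20 fitted reads and the linking distance. The result of 1 marker list is not reported here.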

Additional observations from a re-analysis of the deposited data

How the results depend on the processing

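No paired analysis was possible because the sample columns are fitted values that carry no variation between replicates, and for the same reason no replicate could be left out. The lower call, MSTRG.7288, was lost (0 called) at a linking distance of 50 kb and with distances taken from the middle of a feature, an alternative chosen after seeing the data, since both leave that feature out. The higher call, MSTRG.7323, was lost (0 called) at an adjusted p under 0.01. Both were lost (0 called) with the likelihood ratio referred to an F distribution with 10 or with 4 residual degrees of freedom. Over all features the first of these called 70 higher and 370 lower, and the second 0 higher and 0 lower, so that 4 degrees of freedom could not call any feature. At an unadjusted p under 0.05, 1 of the 37 was higher and 3 lower with 10 degrees of freedom (3.19% higher and 9.52% lower over all features), and 1 higher and 2 lower with 4 (1.53% higher and 5.58% lower over all features). Centring the median ratio at 1 left both calls. Counting overlapping features once could change nothing, since no members overlapped each other. The filter at 20 fitted reads left 1 call each way, but removed MSTRG.7288 and called MSTRG.7290 lower in its place (adjusted p = 0.0467). The summed level over the 37, a ratio of 0.766 between FOG2_OE and WT, ranged from 0.692 without MSTRG.7323 (added after seeing the data) to 0.890 with the median ratio centred at 1. The median log2 fold change, -0.56, was -0.35 when centred, -0.53 at 50 kb and -0.49 after the filter.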
